A study of Mus musculus with 16 samples.

Results

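Cytosolic nucleic acid sensing was followed through 8 genes chosen by name and function: the RNA sensors Ddx58, Ifih1 and Dhx58, their adaptor Mavs, the DNA sensor Cgas, its adaptor Tmem173, and the double-stranded RNA enzymes Eif2ak2 and Adar. All 8 were found among the 54532 gene identifiers of the deposited count table, and all 8 passed the filter on low counts that left 9851 genes for testing. In newer annotation Ddx58 is called Rigi and Tmem173 is called Sting1. The libraries were made from liver neutrophils of 8 mice, numbered 2 to 9, whose blood systems had been rebuilt from a mixture of marrows. In each mouse the Ifngr1_KO library came from CD45.2+ Ifngr1-/- cells, which lack the ligand-binding chain of the receptor for interferon gamma (IFN-gamma), and the WT library from CD45.1+ wild-type cells of the same liver, all C57BL/6. Every mouse was a wild-type host irradiated with about 1000 cGy and rebuilt for 8 weeks with marrow of both genotypes at 50% each. Every mouse also carried a flank tumour of the colon carcinoma line MC38, received the CD40 agonist antibody (aCD40) 1 week after the tumour cells, and was analysed 2 days after the antibody. No group without tumour or antibody was analysed here. Because each genotype had its own donor, CD45 allele and sort gate, effects of these and of the receptor cannot be told apart.

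These genes guard the cytosol against foreign or misplaced nucleic acid. RIG-I (Ddx58) and MDA5 (Ifih1) are helicases that bind viral double-stranded RNA and signal through caspase recruitment domains to MAVS on the mitochondrion, while LGP2 (Dhx58) lacks those domains and modulates the other two. cGAS makes a cyclic dinucleotide when it meets DNA, and that messenger activates STING (Tmem173) on the endoplasmic reticulum; both adaptors lead to kinases and transcription factors that switch on type I interferon. PKR (Eif2ak2) stops translation on binding double-stranded RNA, and ADAR1 (Adar) edits adenosine to inosine in such RNA, which keeps the cell's own transcripts from MDA5. Several of the 8 genes are themselves known to be induced by interferons, so the comparison asks how far their transcripts in liver neutrophils depended on the cells' own IFN-gamma receptor.

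Promoter windows from RefSeq (GRCm38.p6, the build mm10), reaching from 250 bases before to 50 bases after an annotated start, were matched for 6 of the 8 genes: Ddx58, Ifih1, Mavs, Cgas, Eif2ak2 and Adar, the last with 3 starts. They were searched on both strands for GAAANNGAAA, the core of the interferon-stimulated response element (ISRE), and for TTCNNNGAA, the gamma-activated sequence (GAS). The ISRE core was found in 3 of the 6 genes, which are shown here because they are the windows that carry it, with the window of Gbp2, an IFN-gamma-induced GTPase used below as a comparison. Capitals mark the ISRE core, on either strand, and in Eif2ak2 also a GAS match that lies closer to the 5′ end.

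Ddx58, chr4:40239776-40240075, minus strand: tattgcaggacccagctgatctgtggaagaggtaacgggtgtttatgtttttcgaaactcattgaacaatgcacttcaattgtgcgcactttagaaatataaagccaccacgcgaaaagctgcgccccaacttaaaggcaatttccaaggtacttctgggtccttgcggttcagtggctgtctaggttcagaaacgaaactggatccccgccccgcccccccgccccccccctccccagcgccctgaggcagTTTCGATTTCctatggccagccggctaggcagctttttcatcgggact
Ifih1, chr2:62646206-62646505, minus strand: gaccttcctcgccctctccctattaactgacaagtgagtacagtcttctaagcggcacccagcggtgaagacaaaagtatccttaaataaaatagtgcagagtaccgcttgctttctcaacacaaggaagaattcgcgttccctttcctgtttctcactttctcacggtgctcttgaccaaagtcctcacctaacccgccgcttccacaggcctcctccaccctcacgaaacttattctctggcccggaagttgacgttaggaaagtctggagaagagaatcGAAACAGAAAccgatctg
Eif2ak2, chr17:78882523-78882822, minus strand: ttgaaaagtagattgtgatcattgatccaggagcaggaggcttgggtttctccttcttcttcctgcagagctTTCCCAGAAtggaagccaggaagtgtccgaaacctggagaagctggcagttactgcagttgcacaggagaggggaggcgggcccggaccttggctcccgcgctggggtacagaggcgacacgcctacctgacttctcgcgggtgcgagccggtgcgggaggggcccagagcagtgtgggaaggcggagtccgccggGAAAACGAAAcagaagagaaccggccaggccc
Gbp2, chr3:142620413-142620712, plus strand: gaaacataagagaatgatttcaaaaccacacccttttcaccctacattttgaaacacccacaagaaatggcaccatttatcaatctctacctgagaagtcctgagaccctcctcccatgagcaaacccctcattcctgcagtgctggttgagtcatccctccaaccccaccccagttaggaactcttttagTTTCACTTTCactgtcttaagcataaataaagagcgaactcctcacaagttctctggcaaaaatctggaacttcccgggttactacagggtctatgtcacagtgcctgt

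The ISRE core began 3 bases after the start in Ddx58, 33 bases after it in Ifih1 and 19 bases after it in Eif2ak2, where a GAS match also began at -178 relative to the start. In Gbp2 the ISRE core began at -59. Adar had a GAS match 23 bases after the most downstream of its 3 starts, and Mavs and Cgas had neither sequence in these windows. Only exact matches were counted. The same Adar window held gaaagtgaac, which differs from the ISRE core in its last base, so the count does not show that Adar lacks such an element. Among all 32850 windows searched, 3.44% held the ISRE core and 8.30% the GAS. Among genes tested for a difference between genotypes, 319 of 7263 with a window (4.39%) held the ISRE core, against 34 of 176 (19.3%) of the genes that were lower in Ifngr1_KO. The GAS was held by 629 of the 7263 (8.66%) and by 30 of the 176 (17.05%). A match is a description of the letters and does not show that a factor binds there.

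The 16 libraries held 12.48 to 16.9 M estimated counts in Ifngr1_KO and 13.1 to 21.7 M in WT. Ifngr1 was at 38.8 to 119 CPM (counts relative to library size, scaled by trimmed means) in Ifngr1_KO and 228 to 358 CPM in WT, lower in Ifngr1_KO in 8 of 8 mice. The summed level of 8 neutrophil markers was 27310 to 83430 CPM in Ifngr1_KO and 31690 to 54260 CPM in WT. Of the markers of other cells, the 11 Kupffer cell and monocyte genes summed to 1487 to 2657 CPM in Ifngr1_KO and 2247 to 3538 CPM in WT, with Ly6c2 (log2 fold change -0.73, edgeR adjusted p = 0.00543) and Adgre1 (-1.11, 0.0109) lower and Vsig4 at 0 in every library, and the 6 B cell genes summed to 73.7 to 129 CPM in Ifngr1_KO and 160 to 284 CPM in WT, with Ighm lower (-1.75, edgeR adjusted p = 1.7e-05). With the mitochondrial share of each library in the model, Ly6c2 had -0.83 and Adgre1 -0.71, neither of them called (edgeR adjusted p = 0.0651 and 0.388). That share had a median of 1.40% in Ifngr1_KO and 0.569% in WT. It thus went partly with genotype, and here and below a call lost with this covariate cannot tell the 2 apart. Without mouse 7 the neutrophil marker Ly6g was called lower (chosen after its value was seen). Hepatocyte markers summed to 358 to 1379 CPM in Ifngr1_KO and 337 to 1456 CPM in WT, and erythroid markers to 155 to 886 CPM in Ifngr1_KO and 114 to 638 CPM in WT. T and NK cell markers summed to 3.93 to 26.5 CPM in Ifngr1_KO and 4.05 to 18.7 CPM in WT. Endothelial and stellate cell markers summed to 5.02 to 15.5 CPM in Ifngr1_KO and 5.66 to 17.25 CPM in WT, with Lrat at 0 in every library. No gene of these last 4 lists was called, but only 2 of 9 T and NK cell genes and 3 of 8 endothelial and stellate cell genes were tested. The part of these cells in the results was not tested. The Ifngr1_KO library of mouse 7 stood apart: its median correlation with the other libraries across tested genes was 0.821, against 0.899 for the next lowest library, and 2.503% of its counts were mitochondrial mRNA, against 0.475 to 1.84% in the other Ifngr1_KO libraries and 0.294 to 1.19% in WT. It was the lowest of all 16 libraries for 7 of the 8 genes, all but Cgas, and it was the lowest of all 16 for 20.3% of all tested genes. Values are therefore given with and without mouse 7.

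None of the 8 genes was called changed, in either direction, between Ifngr1_KO and WT neutrophils (edgeR quasi-likelihood test with mouse as a block, adjusted p of 0.05 over all 9851 genes), beside 2.8% of all tested genes called in either direction and 2.32% called lower. At an unadjusted p under 0.05 there were 2, Dhx58 and Ifih1, both on the lower side, where 8.57% of all genes stood. DESeq2 and limma-voom each called 1 of the 8 lower, Dhx58 in both, beside 5.81% and 4.31% of all genes. No gene of the 8 had groups that did not overlap, as 1.65% of all genes did. The median log2 fold change of the 8 genes was -0.30 and that of all tested genes 0.046. In bulk libraries of this kind, fewer cells of a type and less RNA per cell cannot be told apart.

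**Figure D1:**
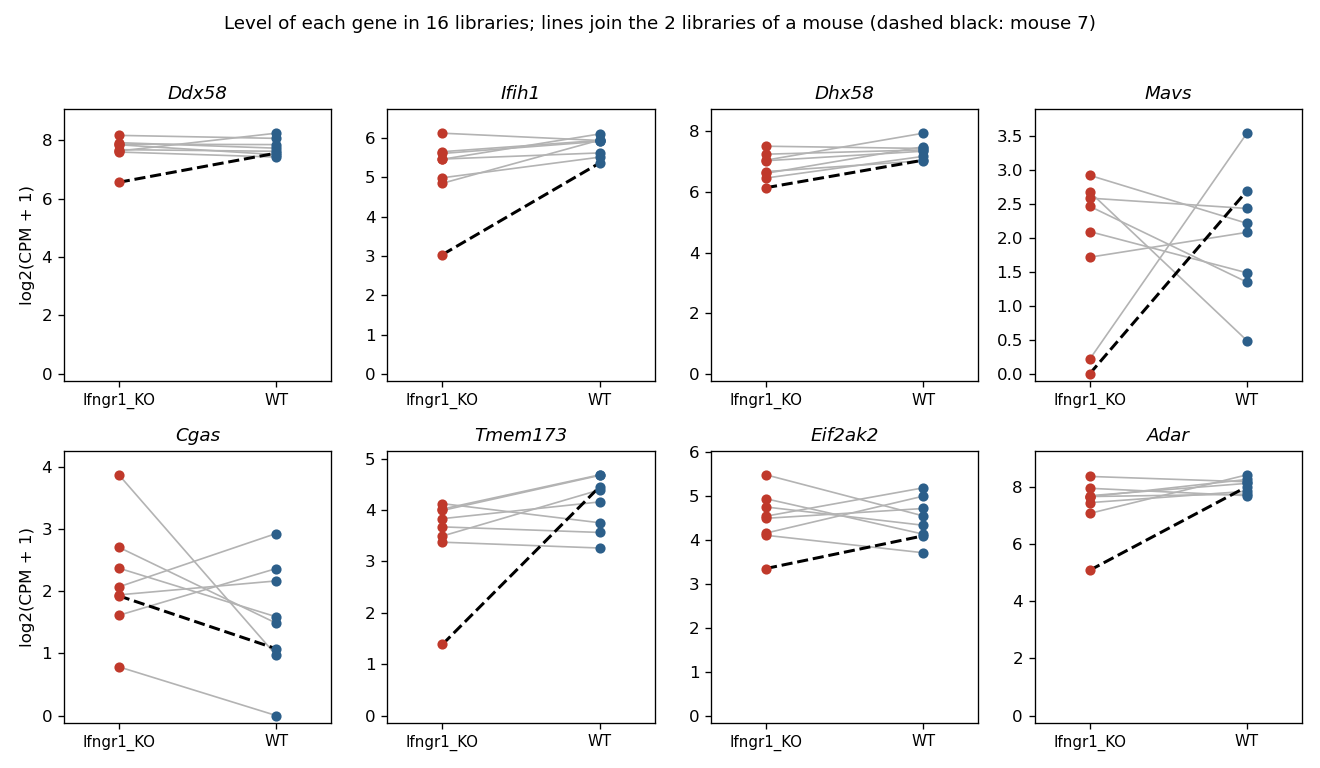
Level of the 8 genes, log2(CPM + 1) on the y axis, in the Ifngr1_KO (red, left) and WT (blue, right) library of each mouse; a line joins the 2 libraries of a mouse and the dashed black line is mouse 7. The groups overlap for every gene, and the Ifngr1_KO library of mouse 7 is the lowest point for 7 genes, at 7.21 CPM for Ifih1 and 33.1 CPM for Adar.

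Dhx58, which encodes LGP2 (ENSMUSG00000017830, chromosome 11, 100694884 to 100704271 on the minus strand of mm10), came nearest to a call. It was at 69.7 CPM in the lowest, 115.5 at the median and 181.5 CPM in the highest Ifngr1_KO library, against 130, 164 and 245 CPM in WT. Its Ifngr1_KO library was below the WT library in 7 of 8 mice, all but mouse 5 (181.5 CPM in Ifngr1_KO, 172.5 CPM in WT), while the ranges of the 2 groups overlapped between 130 and 181.5 CPM. Being lower in at least 7 of 8 mice was seen for 2 of the 8 genes, Dhx58 and Ifih1, and for 11.4% of all tested genes. Means were 119 ± 36.8 CPM in Ifngr1_KO and 166 ± 36.7 CPM in WT (SD, n = 8 each). Its log2 fold change was -0.52 (SE 0.14, 95% interval -0.83 to -0.21, edgeR adjusted p = 0.0828), or 69.7% of the WT level with an interval of 56.2% to 86.4%. DESeq2 gave -0.51 with an adjusted p of 0.0136 and limma-voom -0.52 with 0.0335, so the call depended on the tool. Without mouse 7 the value was -0.46 (edgeR adjusted p = 0.101). With the mitochondrial covariate, which went partly with genotype, it was -0.40 with a wider SE of 0.21 (edgeR adjusted p = 0.71).

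Ifih1, which encodes MDA5 (ENSMUSG00000026896, chromosome 2, 62595798 to 62646255, minus strand), ranged from 7.21 through a median of 43.2 to 68.9 CPM in Ifngr1_KO and from 40.35 through 59.97 to 67.99 CPM in WT. The WT libraries lay close together, with a coefficient of variation of 17.4%, against 45.6% in Ifngr1_KO and 30.4% in Ifngr1_KO without mouse 7. Mouse 3 alone had the higher level in Ifngr1_KO, at 68.9 CPM in Ifngr1_KO and 60.45 CPM in WT, and mouse 7 had the widest gap, at 7.21 CPM in Ifngr1_KO and 40.35 CPM in WT. The change was fitted as -0.64 on the log2 scale (SE 0.26, 95% interval -1.22 to -0.063, edgeR adjusted p = 0.251), and -0.41 without mouse 7 (interval -0.76 to -0.063, adjusted p = 0.216). With the mitochondrial covariate it was -0.13 (adjusted p = 0.979).

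Ddx58, which encodes RIG-I (ENSMUSG00000040296, chromosome 4, 40203773 to 40239828, minus strand), differed between the groups by less than its spread within them. It was at 93.4 CPM in the lowest, 216 at the median and 286 CPM in the highest Ifngr1_KO library, against 171, 203.5 and 302 CPM in WT. In 6 of 8 mice the Ifngr1_KO library was the higher one, and mice 7 and 9 were the exceptions. This gave a log2 fold change of -0.09 (SE 0.16, edgeR adjusted p = 0.820). Its 95% interval, -0.44 to 0.26, spans 73.8% to 119.8% of the WT level, so a change within that span was not excluded. Without mouse 7 the value was 0.04 (interval -0.21 to 0.29), on the other side of 0.

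Mavs, the adaptor of both signalling helicases (ENSMUSG00000037523, chromosome 2, 131234063 to 131248025, plus strand), was near the lower limit of these libraries. Its estimated counts were 0 to 95 per library in Ifngr1_KO and 8 to 203 in WT. As CPM the lowest, median and highest values were 0, 3.89 and 6.56 in Ifngr1_KO and 0.404, 3.435 and 10.6 in WT. Mice 5 and 7 held almost no Mavs in Ifngr1_KO (0.160 and 0 CPM) and the 2 highest levels in WT (10.6 and 5.46 CPM), while mouse 2 had the reverse (5.39 CPM in Ifngr1_KO, 0.404 in WT). For the count of 0 in mouse 7, an upper limit set at 3 counts is 0.240 CPM by library total, without the scaling by trimmed means. A log2 fold change of -0.08 (SE 1.18, edgeR adjusted p = 0.982) had a 95% interval of -2.69 to 2.52, too wide to place the gene, and became 0.47 without mouse 7.

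**Figure D2:**
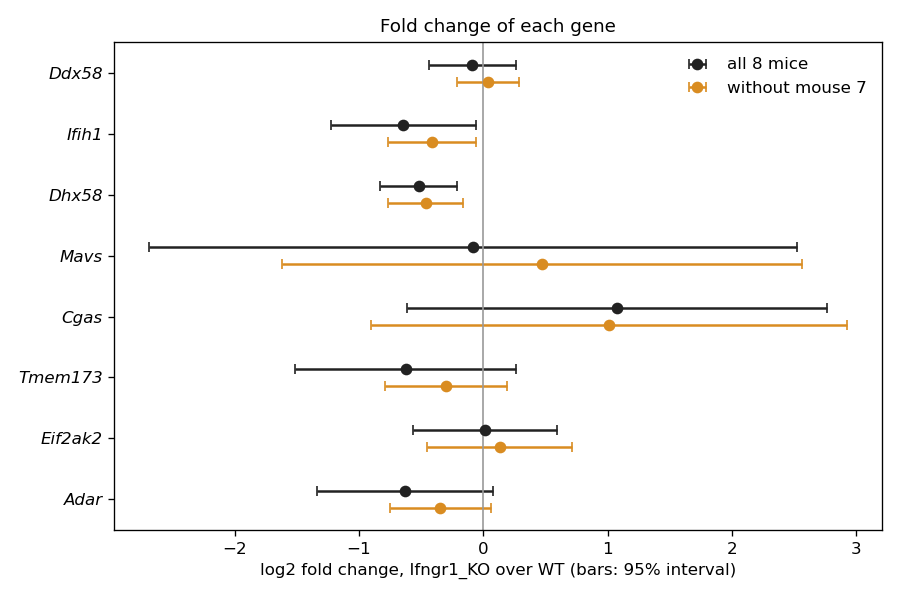
Log2 fold change of Ifngr1_KO over WT (x axis) for the 8 genes, with 95% intervals, over all 8 mice (black) and without mouse 7 (orange). The interval of Ddx58 is -0.44 to 0.26 and that of Mavs -2.69 to 2.52; those of Dhx58 and Ifih1 lie below 0 in both fits, although neither passed the adjusted threshold.

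Cgas, which encodes the DNA sensor (ENSMUSG00000032344, chromosome 9, 78430526 to 78443237, minus strand), was as scarce as Mavs. Counts ran from 9 to 245 per library in Ifngr1_KO and from 0 to 94 in WT, which as CPM gave a lowest, median and highest value of 0.721, 3.02 and 13.6 in Ifngr1_KO and 0, 1.90 and 6.61 in WT. The highest value was that of mouse 6 in Ifngr1_KO. The WT library of mouse 5 was at 0, for which an upper limit set at 3 counts is 0.141 CPM by library total. Cgas was higher in Ifngr1_KO in 5 of 8 mice. Fitted over all mice, its log2 fold change was 1.075 (SE 0.76, 95% interval -0.61 to 2.76, edgeR adjusted p = 0.522), an interval that reached from 65.3% to 679% of the WT level. It was 1.01 without mouse 7, 0.69 without mouse 6, 0.71 without mouse 5, 0.56 with limma-voom and 0.24 with the mitochondrial covariate. A pseudogene on the opposite strand, Gm8093, overlaps 280 bases of the gene and reached at most 2.54 CPM in Ifngr1_KO and 0.101 CPM in WT. Without strand information its reads and those of Cgas cannot be told apart where they overlap.

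Tmem173, which encodes STING (ENSMUSG00000024349, chromosome 18, 35733679 to 35740554, minus strand), was at 1.61, 12.5 and 16.45 CPM in Ifngr1_KO (lowest, median, highest) and at 8.59, 18.4 and 24.7 CPM in WT. Setting aside mouse 7, at 1.61 CPM in Ifngr1_KO and 20.95 CPM in WT, the Ifngr1_KO libraries stayed within 9.37 to 16.45 CPM, inside the WT range. The level was lower in Ifngr1_KO in 5 of 8 mice. Over all 8 mice the log2 fold change was -0.63 (SE 0.40, 95% interval -1.51 to 0.26, edgeR adjusted p = 0.474) and -0.30 without mouse 7 (adjusted p = 0.555). It moved by more than 1.5 times with that 1 mouse, and with the mitochondrial covariate it was 0.20.

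Eif2ak2, which encodes PKR (ENSMUSG00000024079, chromosome 17, 78852564 to 78882573, minus strand), showed no common direction. It was at 9.16, 21.8 and 43.5 CPM in Ifngr1_KO (lowest, median, highest) and at 12.02, 20.7 and 35.25 CPM in WT, higher in Ifngr1_KO in 4 mice and lower in 4. The log2 fold change was 0.01 (SE 0.26, 95% interval -0.56 to 0.59, edgeR adjusted p = 0.987), and 0.13 without mouse 7. The non-coding gene Gm26637 overlaps 532 bases at the 5′ end on the opposite strand and held up to 4.004 CPM in Ifngr1_KO and 5.72 CPM in WT.

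Adar, which encodes ADAR1 (ENSMUSG00000027951, chromosome 3, 89715022 to 89753446, plus strand), was among the most abundant of the 8. It was at 33.1, 203 and 332 CPM in Ifngr1_KO (lowest, median, highest) and at 208, 270 and 346 CPM in WT. Mice 4 and 5 had more Adar in Ifngr1_KO (332 CPM in Ifngr1_KO and 292 CPM in WT of mouse 4, 248.9 CPM in Ifngr1_KO and 208 CPM in WT of mouse 5). The other 6 had less, and mouse 7 had the widest gap (33.1 CPM in Ifngr1_KO, 259 CPM in WT). The fitted log2 fold change was -0.63 (SE 0.32, 95% interval -1.34 to 0.080, edgeR adjusted p = 0.361). Without mouse 7 it was -0.35 (interval -0.75 to 0.063, adjusted p = 0.393), and with the mitochondrial covariate it was 9.3e-04. Counts are totals over the gene, so the interferon-inducible long isoform and the constitutive short isoform of ADAR1 could not be told apart.

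Scaled by merged exon length, the mean levels of the 8 genes fell into 3 tiers in both genotypes. In Ifngr1_KO the upper tier held Dhx58 with 36.3 ± 11.2 CPM per kb, Ddx58 with 29.7 ± 7.91 and Adar with 23.7 ± 10.6, and in WT Dhx58 with 50.8 ± 11.2, Adar with 32.97 ± 5.92 and Ddx58 with 30.9 ± 6.47 (SD, n = 8 each). In Ifngr1_KO the middle tier held Ifih1 with 4.88 ± 2.23, Eif2ak2 with 4.51 ± 2.03 and Tmem173 with 4.23 ± 1.73 CPM per kb, and in WT Ifih1 with 6.78 ± 1.18, Tmem173 with 6.34 ± 2.27 and Eif2ak2 with 4.33 ± 1.55. The lowest tier was Cgas with 1.059 ± 0.970 and Mavs with 1.02 ± 0.725 CPM per kb in Ifngr1_KO, and Mavs with 1.16 ± 0.949 and Cgas with 0.609 ± 0.517 in WT. The lowest gene of the upper tier was above Ifih1 in 8 of 8 libraries of each group. The lowest gene of the middle tier was above the next gene in 7 of 8 libraries in Ifngr1_KO (Tmem173 over Cgas) and in 8 of 8 in WT (Eif2ak2 over Mavs). Within tiers, most neighbours did not differ beyond their spread: in Ifngr1_KO, Dhx58 was above Ddx58 in 5 of 8 libraries, Ddx58 above Adar in 6, Ifih1 above Eif2ak2 in 6 and Cgas above Mavs in 4. Eif2ak2 had a higher mean than Tmem173 in Ifngr1_KO but was above it in 2 of 8 libraries. In WT, Dhx58 was above Adar in 8 of 8 libraries, Adar above Ddx58 in 6, Ifih1 above Tmem173 in 5, Tmem173 above Eif2ak2 in 6 and Mavs above Cgas in 6. In both genotypes RIG-I transcripts outnumbered those of MDA5 in every library, with a median length-scaled ratio of 6.575 (3.90 to 15.02) in Ifngr1_KO and 4.87 (3.33 to 5.38) in WT. The length-scaled ratio of Dhx58 to Ddx58 was 1.18 (0.870 to 2.03) in Ifngr1_KO and 1.56 (1.155 to 2.295) in WT. The place of Dhx58 depended on this scaling, with merged exons of 3272 bp against 7050 for Ddx58 and 8118 for Adar. Unscaled means in WT were 166 CPM for Dhx58, 218 for Ddx58 and 268 for Adar. In Ifngr1_KO they were 119, 209 and 192 CPM. Merged exons cover all annotated transcripts and can be longer than the transcripts present.

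**Figure D3:**
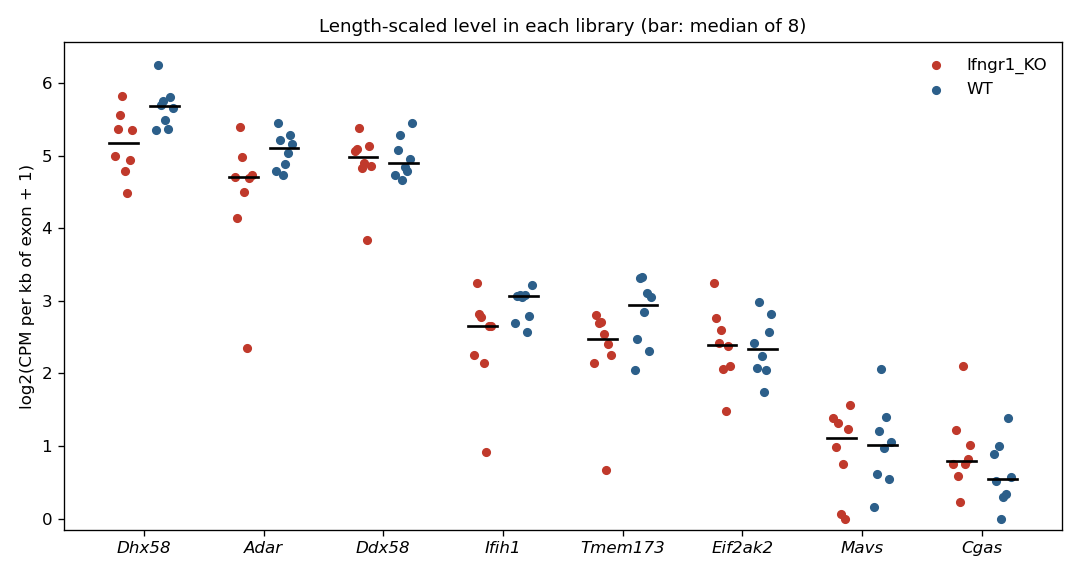
Length-scaled level of the 8 genes, log2(CPM per kb of exon + 1) on the y axis, in each Ifngr1_KO (red, left of each pair) and WT (blue) library, with the median of 8 as a bar. By their medians Dhx58, Adar and Ddx58 lie highest, Ifih1, Tmem173 and Eif2ak2 in the middle and Mavs and Cgas lowest. Single libraries overlap between tiers, as for Adar at 4.07 CPM per kb in Ifngr1_KO of mouse 7, Cgas at 3.31 in Ifngr1_KO of mouse 6 and Mavs at 3.175 in WT of mouse 5.

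The genes also differed in how much they varied between mice. In Ifngr1_KO the coefficient of variation was 26.6% for Ddx58 and 31.0% for Dhx58, 40.8% to 45.6% for Tmem173, Eif2ak2, Adar and Ifih1, 71.3% for Mavs and 91.6% for Cgas. Without mouse 7 it was 14.4% for Ddx58, 20.5% for Tmem173, 26.6% for Dhx58, 29.0% for Adar, 37.5% for Eif2ak2 and 55.6% for Mavs, and 92.9% for Cgas. In WT it was 17.4% for Ifih1, 18.0% for Adar, 20.9% for Ddx58, 22.1% for Dhx58, 35.7% for Tmem173 and for Eif2ak2, 81.7% for Mavs and 84.9% for Cgas. Ddx58 was thus the steadiest of the 8 in Ifngr1_KO, and Mavs and Cgas varied most in both genotypes. The dispersion that edgeR fitted around the mouse and genotype effects is another measure, because differences between mice are taken out first. As a coefficient of variation it was 1.16 for Mavs against 0.808 for genes of its abundance, and 0.228 for Dhx58 against 0.296.

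Whether 2 genes with a shared role changed by different amounts was tested within mice, as the log2 change of CPM + 1 of 1 gene minus that of the other (exact two-sided sign-flip test over 8 mice, adjusted over 7 pairs). No pair passed at an adjusted p of 0.05. With 8 mice the smallest exact p is 0.00781, and a pair that stood alone could not go below an adjusted p of 0.0547, so this test could not have called a single pair. Ifih1 minus Ddx58 came closest: the mean changes were -0.65 ± 0.78 for Ifih1 and -0.09 ± 0.46 for Ddx58, and their difference of -0.55 ± 0.53 (SD, n = 8) was negative in 7 of 8 mice (exact p = 0.0234, adjusted p = 0.164). Dhx58 minus Ddx58 was -0.42 ± 0.502, negative in 6 of 8 mice (exact p = 0.0703, adjusted p = 0.219). Cgas minus Tmem173 was 1.219 ± 1.715 (exact p = 0.0938, adjusted p = 0.219) and Eif2ak2 minus Adar 0.68 ± 1.096 (exact p = 0.141, adjusted p = 0.246). The 3 differences between a helicase and Mavs were between -0.44 and 0.11, with SDs of 1.66 to 1.995 and exact adjusted p of 0.645 to 0.875. Ifih1 minus Mavs was -0.94 without mouse 5 and -0.12 without mouse 2.

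Around the sensors, each gene of the pathway lists that edgeR called was lower in Ifngr1_KO. Beside the counts below, edgeR called 2.32% of all tested genes lower, DESeq2 5.81% and limma-voom 4.31%. The lists are small, and their counts were not tested against these shares. Of 29 tested regulators of the RIG-I-like receptors 2 fell: Nlrc5, a regulator of class I genes also reported to inhibit this pathway, to 40.02 ± 17.01 CPM in Ifngr1_KO against 156 ± 53.8 CPM in WT (log2 fold change -2.01, SE 0.18, edgeR adjusted p = 1.1e-04), and Zc3hav1, the zinc finger antiviral protein, to 77.4 ± 18.4 CPM in Ifngr1_KO against 121 ± 18.9 CPM in WT (-0.67, adjusted p = 0.0207). The call of Zc3hav1 was lost without mouse 3, 4, 6, 8 or 9 (edgeR adjusted p of 0.0536 to 0.0850), with library totals (0.0713) and with the mitochondrial covariate (0.515). edgeR called none of the other 27, and the median of the list was 0.01. DESeq2 called 3 of the 29 lower and 1 higher, and limma-voom 3 lower.

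Of 22 tested kinases and transcription factors downstream of MAVS and STING none was called (median log2 fold change -0.28), 7 having an unadjusted edgeR p under 0.05. DESeq2 called 2 lower and 1 higher, and limma-voom 2 lower. The most abundant were Irf7, the master regulator of type I interferon genes, at 3464 ± 1121 CPM in Ifngr1_KO and 3938 ± 630 CPM in WT (-0.24, adjusted p = 0.473), and the kinase gene Ikbke, at 748 ± 268 CPM in Ifngr1_KO and 1292 ± 252 CPM in WT (-0.89, edgeR adjusted p = 0.0756). Ikbke was lower in Ifngr1_KO in 8 of 8 mice and was called without mouse 7 (-0.66, adjusted p = 0.00408), with DESeq2 (0.00476) and with limma-voom (0.00497). With the mitochondrial covariate its value was -0.30 (edgeR adjusted p = 0.866).

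Among 30 tested regulators of cGAS and STING 2 fell. Samhd1, whose product depletes nucleotides and is known to restrain sensing of the cell's own nucleic acid, was at 882 ± 143 CPM in Ifngr1_KO and 1944 ± 188 CPM in WT (-1.15, SE 0.11, edgeR adjusted p = 1.5e-04). Irgm1, an immunity-related GTPase, was at 202 ± 84.7 CPM in Ifngr1_KO and 952.5 ± 290.3 CPM in WT (-2.33, SE 0.21, adjusted p = 9.8e-05). Both were lower in 8 of 8 mice, and the list median was -0.11. DESeq2 called 3 lower and 5 higher here, and limma-voom 3 lower. Of 17 tested double-stranded RNA-binding proteins and genes of the PKR pathway 1 fell, Zbp1, whose product recognises nucleic acid in the Z conformation, with -1.155 (SE 0.09, edgeR adjusted p = 3.9e-05), and the median was 0.06. DESeq2 and limma-voom each called 2 of the 17 lower.

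Of 11 oligoadenylate synthetase and RNase L genes, another double-stranded RNA pathway, none was called and 3 had an unadjusted edgeR p under 0.05 (median -0.11), while DESeq2 and limma-voom each called 2 lower. Oasl2 was at 1648 ± 432 CPM in Ifngr1_KO and 2476 ± 391.8 CPM in WT (-0.63, adjusted p = 0.06135), and Oas3 at 938 ± 316 CPM in Ifngr1_KO and 1589 ± 204 CPM in WT (-0.85, adjusted p = 0.0808). Both were lower in 8 of 8 mice and both were called without mouse 7 (edgeR adjusted p of 0.00511 and 0.01754), with DESeq2 (0.006245 and 0.006246) and with limma-voom (0.005225 and 0.01045). With the mitochondrial covariate Oasl2 had -0.28 and Oas3 -0.34 (edgeR adjusted p = 0.805 and 0.855). Among 22 other cytosolic sensors 2 fell, Zbp1 again and Ifi211, a member of the p200 family reached through the listed name Mnda, at 38.4 ± 10.25 CPM in Ifngr1_KO and 77.1 ± 22.85 CPM in WT (-0.99, adjusted p = 0.00300). DESeq2 and limma-voom each called 3 of the 22 lower. For comparison, 10 of 12 IFN-gamma-induced genes fell, with a median of -2.26, among them Gbp2, whose promoter window is shown above, at 221 ± 81.1 CPM in Ifngr1_KO and 1391 ± 337 CPM in WT (SD, n = 8 each). Among the others that fell, Ifi47, Psmb9 and Cxcl10 had log2 fold changes of -2.56, -1.85 and -1.49. Irgm1, given above among the regulators of cGAS and STING, is also in this list.

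**Figure D4:**
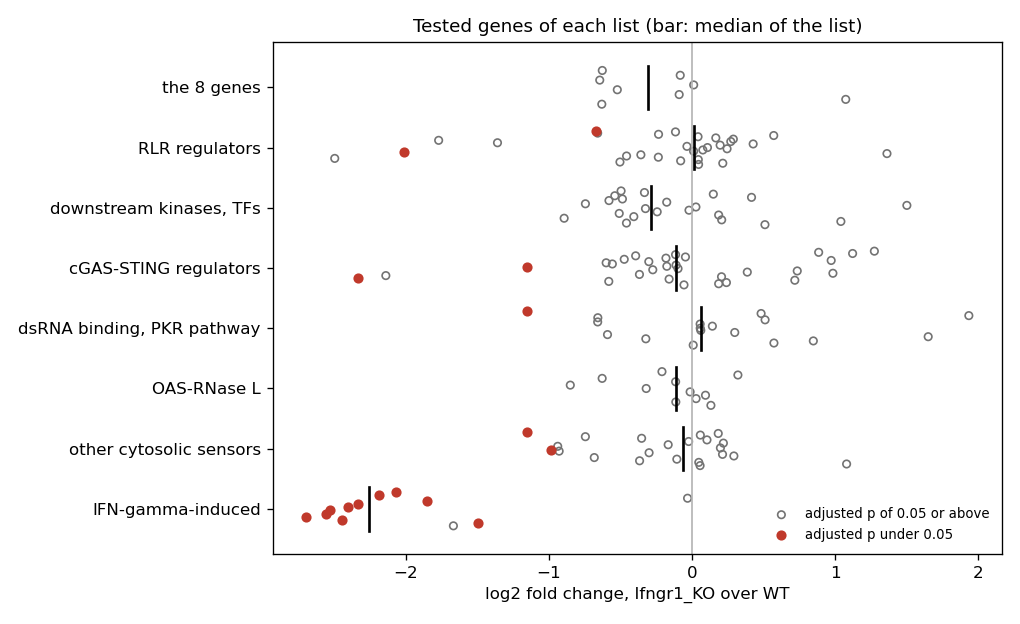
Log2 fold change of Ifngr1_KO over WT (x axis) for each tested gene of the 8 sensors and adaptors and of 7 related lists, with the median of each list as a bar and genes at an adjusted p under 0.05 filled in red. None of the 8 genes is filled, while 10 of 12 IFN-gamma-induced genes are, around a median of -2.26.

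The secreted product of these pathways was all but missing from the libraries. Of 18 type I interferon genes 17, Ifnb1 and every listed Ifna gene among them, had a count of 0 in all 16 libraries. The other, Ifnz, was above 0 in 2 Ifngr1_KO libraries, with at most 6 counts. For a count of 0 the upper limit was set at 3 counts, or 0.138 to 0.240 CPM depending on the library. These limits use library totals, without the scaling by trimmed means, and cover counting error only. The Ifna genes are near-identical copies, so estimates for single copies are uncertain.

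Since no gene of the 8 was called, likeness was measured for the gene with the smallest p, Dhx58. Over 16 libraries and the 5156 tested genes whose mean log2 CPM reached 3, the 3 genes whose centred log2 levels differed least from those of Dhx58 were Irf9, the DNA-binding subunit of the interferon-stimulated gene factor complex, Armc7 and Rnf114. The mean absolute differences were 0.167, 0.175 and 0.176, against a median of 0.517 over all these genes. Irf9 was at 311 ± 65.35 CPM in Ifngr1_KO and 424 ± 54.4 CPM in WT, a log2 fold change of -0.47 (edgeR adjusted p = 0.0856).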

How the data were processed

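The authors deposited unscaled estimated counts for each Ensembl gene as whole numbers, read here as rounded Salmon output. Salmon 0.14.2, DESeq2 1.22.1 and build mm10 are named, per the submitters' processing notes, without their roles. Per the labels' protocols, oligo-dT primed cDNA from 1 ng of RNA was amplified over 13 PCR cycles. Such libraries carry neither molecular identifiers nor strand. Sample titles gave genotype and mouse.

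Names, positions and exon lengths came from GENCODE M21. In R 4.3.3, edgeR 4.0.16 filtered genes by filterByExpr (9851 kept, 99.7% of counts), scaled by TMM and fitted genotype with mouse as a block, because both libraries of a number come from 1 mouse (correlation of their deviations from the group means 0.0357 to 0.425, mean 0.177, against -0.0233 between mice). P-values were adjusted by Benjamini-Hochberg over all genes tested. SE is the log2 fold change over the square root of F, and intervals use the t distribution. Levels per kb use merged exons. The mitochondrial share is that of mitochondrially encoded mRNA. Promoter windows of chromosome 18 were left out. DESeq2 1.42.0 and limma 3.58.1 served as alternatives. The fit was tested on simulated data. The genes, lists and tests were chosen with earlier results of these data known. Named genes were the 8, Ifngr1, up to 5 called genes per list or the 2 most abundant where none was called, and the 3 genes most like Dhx58; Ly6c2, Adgre1 and Ighm fall under the list rule. A gene that the rule also names is not reported here. The labels name 8 mice, so p-values measure the spread between animals.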

Additional observations from a re-analysis of the deposited data

Results flagged for a closer look

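Over 16 groups of 8 libraries examined (8 genes in 2 genotypes), 2 held a library far from the others, where chance alone flags about 1 group in 20. Dhx58 reached 244.9 CPM in the WT library of mouse 3, and the next WT library was at 179 CPM. Cgas reached 13.64 CPM in the Ifngr1_KO library of mouse 6, and the next Ifngr1_KO library was at 5.53 CPM.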

How the results depend on the processing

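Without the replicate block the counts were 216 lower and 52 higher genes, and no gene of the 8 was called. DESeq2 size factors, library totals, both other filters, the mitochondrial covariate and leaving out any 1 mouse also called none of the 8; DESeq2 and limma-voom called 1, Dhx58, at -0.51 and -0.52. All genes called lower were 229, and 85 with the mitochondrial covariate, 572 with DESeq2, 425 with limma-voom and 144 to 334 with 1 mouse left out (144 to 152 without mouse 3, 6, 8 or 9, 334 without mouse 7). Genes called higher were 47, and 102 with library totals, 31 with no filter, 126 at a mean CPM of at least 10, 8 with the covariate, 488 with DESeq2, 172 with limma-voom and 19 to 78 with 1 mouse left out (19 to 26 without mouse 3, 6, 8 or 9, 78 without mouse 7).

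The sign of 5 of the 8 genes turned under some setting, and none of these values was called. With library totals Ddx58 had 0.0248 and Mavs 0.0602, beside a median over all genes of 0.157 (0.046 with TMM). With limma-voom Ddx58 had 0.0155 and Mavs 0.51. With the mitochondrial covariate Ddx58 had 0.269, Mavs 2.09, Tmem173 0.20 and Adar 9.3e-04, and with no filter Eif2ak2 had -0.0136; the cause was not tested. With 1 mouse left out Ddx58 ran from -0.14 to 0.0384, Mavs from -0.61 to 0.47, Eif2ak2 from -0.12 to 0.14, Ddx58 minus Mavs from -0.37 to 0.39 and Dhx58 minus Mavs from -0.84 to 0.0042, the last being 0.0888 with a prior of 0.1 CPM. No pair passed under any setting, but with 1 mouse left out a pair that stood alone could not go below an adjusted p of 0.109, so these settings say nothing about stability. In the lists, genes called lower with 1 mouse left out were 1 to 2 of the receptor regulators, 0 to 1 of the kinases, 2 to 3 of the cGAS and STING regulators, which also had 0 to 1 higher, 0 to 2 of the OAS genes and 2 to 3 of the other sensors. Mavs and Cgas rest on few counts per library and had no value at a mean CPM of at least 10.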
